A study of Mus musculus with 7 samples.

Results

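The Reelin pathway genes were followed through single nuclei of the mouse posterolateral cortical amygdala (plCoA), a cortical amygdala area that receives olfactory input. The 7 genes were the ligand gene Reln, the receptor genes Vldlr and Lrp8, the intracellular adaptor Dab1, the kinase Fyn and the adaptors Crk and Crkl, taken by symbol from the 32285 genes listed in the files, where 7 of 7 were found. Nuclei were isolated from microdissected tissue of male C57BL6J mice, 8 weeks old, and the labels name no transgene or treatment. The authors' methods state that all of these mice were housed singly and kept under sensory deprivation before sacrifice. The anterior domain (aplCoA) and the posterior domain (pplCoA) were each sampled as 3 biological replicates, each a pool of tissue from several animals, and aplCoA replicate 1 was the sum of 2 libraries. Since a replicate is a pool, its value averages over animals, and the spread between replicates is a spread between pools. Droplet RNA-seq libraries (10x 3′ v3.1) counted unique molecular identifiers (UMIs), and values are given as CPM, the UMIs of a gene per 1000000 UMIs summed over all nuclei of a class in a replicate.

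Reelin is a large secreted glycoprotein. It binds the lipoprotein receptors encoded by Vldlr and Lrp8 (the latter also called ApoER2), whose clustering lets the Src family kinases, Fyn among them, phosphorylate Dab1, and phosphorylated Dab1 recruits Crk and Crkl to pass the signal on. In the developing cortex Reelin comes from Cajal-Retzius cells of the marginal zone and guides neuronal positioning, whereas in the adult forebrain it is made mainly by GABAergic interneurons and by some excitatory neurons, and acts at synapses.

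The libraries held 50812605 to 129624583 UMIs each. After nuclei with fewer than 1000 genes, outliers and doublets were removed, 46412 nuclei remained (27361 aplCoA, 19051 pplCoA, 4033 to 14385 per replicate), with a median of 5147 to 6754 UMIs per nucleus by replicate. The 21 pairs of libraries shared 4 to 29 of their nuclei's barcodes. Classes were named from marker genes after clustering without the 7 genes and 56 other genes of the pathway. They held 19795 glutamatergic neurons, 5068 GABAergic neurons, 9769 astrocytes, 3635 oligodendrocyte precursor cells (OPCs), 315 newly formed oligodendrocytes (NFOLs), 1532 mature oligodendrocytes (MOLs), 2805 microglia, 1856 vascular leptomeningeal cells (VLMCs) and 1054 arachnoid barrier cells (ABCs). Smaller groups, among them 263 macrophages, 41 mural cells and 139 nuclei left unnamed, were not tested. The median share of mitochondrial UMIs per nucleus was 0.0241% to 0.0308% in the aplCoA replicates and 0.00979% to 0.0165% in the pplCoA replicates, and that of ribosomal protein UMIs was 0.312% to 0.398% and 0.233% to 0.283%. Both measures moved with domain, and their part in the differences between domains was not tested.

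The 7 genes lie on 6 chromosomes. In GRCm38, the build of the files, Reln spans 460.2 kb of chromosome 5 (21884454 to 22344702, minus strand) and Dab1 1125.5 kb of chromosome 4 (103619359 to 104744844, plus strand). Vldlr spans 37.7 kb of chromosome 19 (27216484 to 27254231, plus strand), and Lrp8 spans 74.6 kb of chromosome 4 (107802261 to 107876840, plus strand). Fyn lies on chromosome 10 (39368855 to 39565381), Crk on chromosome 11 (75679259 to 75706908) and Crkl on chromosome 16 (17451987 to 17487434), all on the plus strand. Reads from introns were counted, and annotated exons make up 0.703% of the Dab1 span and 5.16% of the Reln span but 26.7% of the Vldlr span. Levels are therefore compared between cell classes within a gene, and not between genes.

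Among the 9 classes tested, which leave out the small Trp73 group described below, Reln, the ligand, was highest in GABAergic neurons. In these nuclei it stood at 971, 1088 and 1069.7 CPM in the aplCoA replicates and at 866, 768 and 762 CPM in the pplCoA replicates. In glutamatergic neurons it stood at 103, 85.3 and 158 CPM in aplCoA and at 143, 149 and 167 CPM in pplCoA. The lowest GABAergic value was thus above the highest glutamatergic value, and within a replicate the ratio ran from 4.57 to 12.8, with a median of 6.41. The fitted difference was 2.56 on the log2 scale (SE 0.16, edgeR quasi-likelihood adjusted p = 4.23e-20), in a contrast in which 60.1% of all genes tested were called. Astrocytes followed at 51.1 ± 16.7 CPM (SD, n = 6 replicates) and OPCs at 21.7 ± 6.36 CPM, and the ranges of these last classes overlapped. In NFOLs, MOLs, microglia, VLMCs and ABCs the mean lay between 5.97 and 7.77 CPM.

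**Figure D1:**
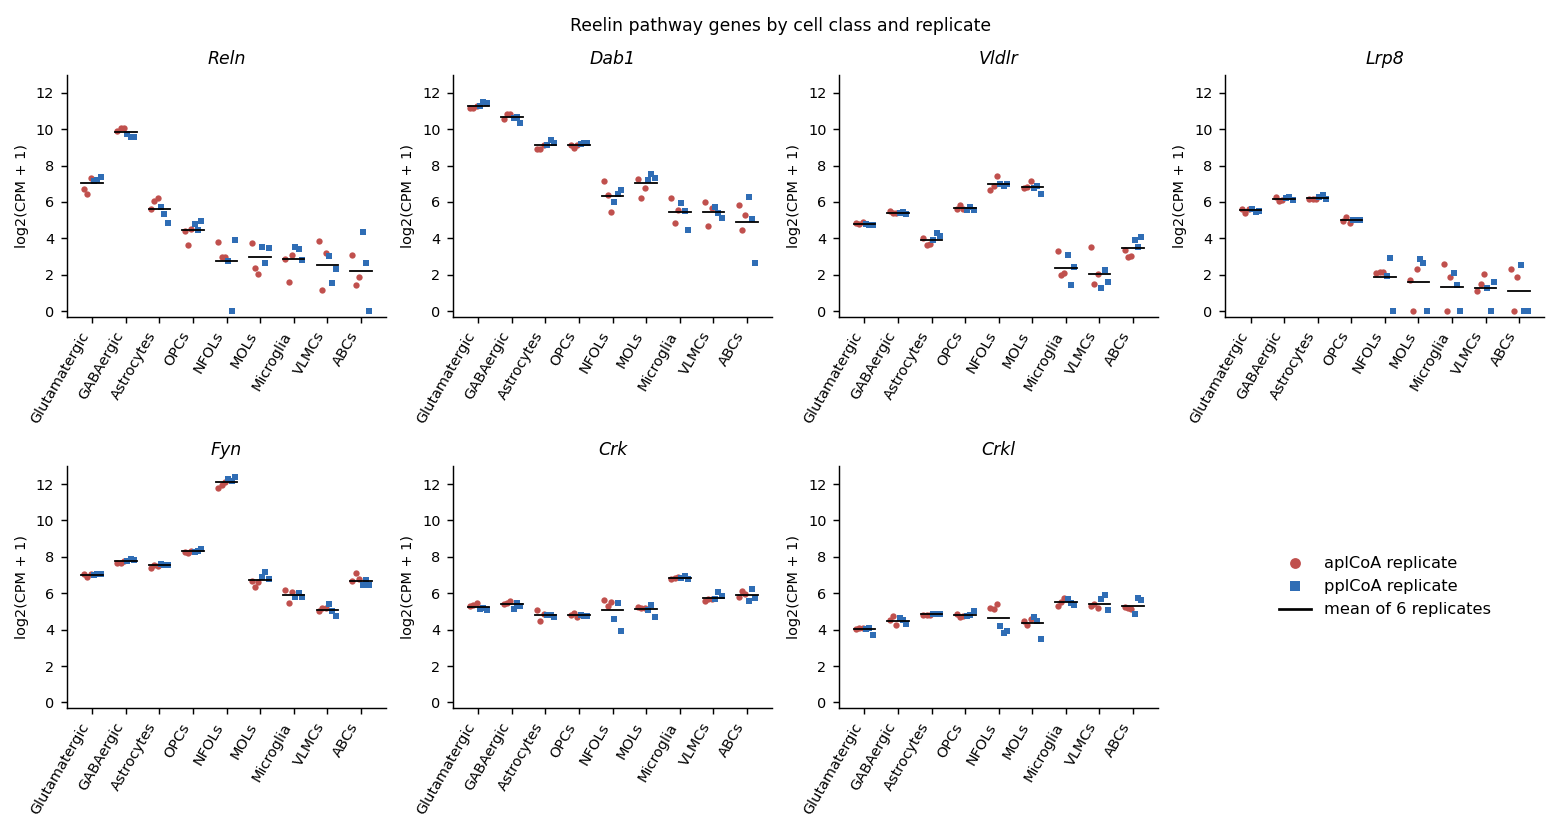
Level as log2(CPM + 1) of each of the 7 genes (panels) in each of 9 classes (horizontal axis), with 1 point per replicate, coloured by domain, and a line at the mean of 6 replicates. Of these classes Reln was highest in GABAergic neurons, Dab1 in glutamatergic neurons, Fyn in NFOLs and Crk in microglia, whereas the highest classes of Vldlr (NFOLs and MOLs) and Lrp8 (astrocytes and GABAergic neurons) overlapped.

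Averaged over all 6 replicates, the neuron classes held similar shares of all Reln UMIs, but the order of their means differed between domains. GABAergic neurons were 10.9% of nuclei and held 50.1% ± 9.33 (SD, n = 6) of the Reln UMIs, whereas glutamatergic neurons were 42.2% of nuclei and held 44.5% ± 10.5. The GABAergic share was 51.4% to 62.6% in aplCoA (mean 57.3%) and 37.6% to 48.1% in pplCoA (mean 42.8%), and the glutamatergic share was 31.2% to 42.1% in aplCoA (mean 36.1%) and 47.5% to 58.4% in pplCoA (mean 53.0%). The ranges of the domains did not overlap in either class, and the exact permutation p was 0.1 for each class, the smallest that 3 against 3 replicates allow. This share depends on the number of nuclei sampled from each class and on their depth as well as on the CPM.

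The share of nuclei with a Reln UMI gave the same order at equal depth. Each nucleus was thinned to 2000 UMIs, which left out 34 glutamatergic, 26 GABAergic, 661 astrocyte, 119 OPC and 389 microglial nuclei that were shallower. A Reln UMI was then found in 37.0% ± 5.82 (SD, n = 6) of GABAergic nuclei, 16.8% ± 3.64 of glutamatergic nuclei, 8.27% ± 2.52 of astrocytes and 3.87% ± 1.15 of OPCs. Without thinning the GABAergic and glutamatergic shares were 49.0% and 38.6%, at median depths of 7907 and 12293 UMIs. Microglia, which should lack Reln, gave 1.41% ± 0.71 after thinning (2.46% without, median depth 3182 UMIs), and NFOLs, MOLs, VLMCs and ABCs, at 1.14% to 1.87%, lay near that background. Barcodes too small to be nuclei held Reln at 142 ± 19.5 CPM, so free RNA in the droplets carried it, and its part in the lower values was not tested. Astrocytes, at a median depth of 3340 UMIs, stood above microglia of the same replicate in CPM in 6 of 6 replicates (4.20 to 33.0 times).

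Cajal-Retzius cells are marked by Trp73, and nuclei with at least 2 Trp73 UMIs were held apart from their class. There were 66 of them, 38, 1 and 10 in the aplCoA replicates and 7, 6 and 4 in the pplCoA replicates, and 58 lay with 74 other nuclei in a cluster that also carried Ndnf, Cacna2d2, Ebf3 and Lhx1. Of the other listed markers, Lhx5 was found in 19.7% and Calb2 in 12.1% of Trp73 nuclei, against 0.187% and 4.21% of glutamatergic nuclei. Diaph3 went the other way, at 1.52% against 7.75%. Of the 66, 59 (89.4%) had a Reln UMI, while Gad1 was seen in 3 and Slc17a6 in 32. In the 4 replicates with at least 5 such nuclei Reln was 28.1, 28.6, 10.4 and 14.9 times its glutamatergic level, a mean log2 ratio of 4.23 ± 0.72 (SD, n = 4), higher in 4 of 4, with an exact sign-flip permutation p of 0.125 that is the smallest possible. Taken as the whole cluster, a choice made after seeing the data, the ratio was 4.83 ± 0.41 on the log2 scale, higher in 6 of 6 replicates (an exact permutation p at the smallest value that 6 replicates allow). With a floor of 1 Trp73 UMI it was 2.73. Pooled Reln was 2901 CPM in Trp73 nuclei and 3171 CPM in the 74 other nuclei of the cluster, above the 933 CPM of GABAergic neurons. Trp73 nuclei held 1.06% ± 0.73 (SD, n = 6) of all Reln UMIs, and the 74 other nuclei of the cluster held 1.31% ± 0.77, with 1.49% to 2.45% in aplCoA and 0.429% to 0.942% in pplCoA. They were 0.134% ± 0.121 of aplCoA nuclei and 0.0912% ± 0.0203 of pplCoA nuclei (n = 3 each, exact permutation p = 0.8), and without aplCoA replicate 1 the difference of 0.0424 percentage points became -0.0229. The whole cluster held 68, 13 and 22 nuclei in the aplCoA replicates and 9, 11 and 9 in the pplCoA replicates, a difference of 0.184 percentage points of all nuclei without overlap of the shares (exact permutation p = 0.1, the smallest possible).

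The receptors showed a different distribution from the ligand. Vldlr was highest in the oligodendrocyte lineage after the precursor stage, at 99.0, 114, 171, 124, 115 and 127 CPM in NFOLs (aplCoA replicates 1 to 3, then pplCoA) and at 107, 113, 142, 107, 116 and 85.6 CPM in MOLs. These ranges overlapped, and each value exceeded the range of 46.2 to 54.9 CPM in OPCs. GABAergic neurons followed at 41.6 ± 1.35 CPM (SD, n = 6) and glutamatergic neurons at 26.7 ± 1.56 CPM, without overlap. Droplets without a nucleus held Vldlr at 57.2 ± 15.6 CPM (SD, n = 6), and the part of free RNA in these levels was not tested. Against glutamatergic neurons Vldlr was higher by 1.96 in NFOLs (SE 0.15) and 2.03 in MOLs (SE 0.12) on the log2 scale, with edgeR adjusted p of 2.95e-17 and 1.68e-21. The NFOL values rest on 31 to 49 UMIs per replicate. Vldlr was lower in astrocytes (-0.99), ABCs (-1.92), microglia (-2.53) and VLMCs (-2.98), all past the threshold.

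Among the 9 classes Lrp8 was highest in astrocytes and GABAergic neurons. Its values were 71.8, 70.0, 70.0, 77.4, 83.5 and 69.8 CPM in astrocytes and 75.2, 66.6, 67.7, 74.5, 76.5 and 67.2 CPM in GABAergic neurons, 2 ranges that overlapped. Glutamatergic neurons stood below both, at 40.7 to 48.7 CPM, and the log2 difference from them was 0.60 in astrocytes (SE 0.10, edgeR adjusted p = 2.41e-07) and 0.42 in GABAergic neurons (SE 0.10, adjusted p = 0.000179), the latter not called with DESeq2 (0.43, adjusted p = 0.0898). OPCs held 31.1 ± 2.12 CPM (SD, n = 6), and NFOLs, MOLs, microglia, ABCs and VLMCs between 1.59 and 3.27 CPM. The oligodendrocyte lineage after the OPC stage therefore carried Vldlr transcripts with little Lrp8, and astrocytes carried Lrp8 with 14.5 ± 2.67 CPM of Vldlr. Over the alternatives, the log2 difference of Lrp8 from glutamatergic neurons ran from -4.39 to -3.11 in NFOLs and from -4.20 to -1.49 in MOLs, always called. Droplets without a nucleus held Lrp8 at 41.9 ± 7.02 CPM (SD, n = 6), and the part of free RNA in its levels was not tested. Lrp8os2, an antisense gene that overlaps Lrp8, had 8235 UMIs against 18829 for Lrp8, and whether reads were split between them was not tested.

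Dab1, the adaptor that both receptors use, was highest in glutamatergic neurons. Its values there were 2257, 2286 and 2452 CPM in aplCoA and 2468, 2882 and 2803 CPM in pplCoA. GABAergic neurons held 1517, 1797 and 1836 CPM in aplCoA and 1571, 1641 and 1315 CPM in pplCoA, a log2 difference of -0.86 (SE 0.15, edgeR adjusted p = 2.07e-06). OPCs at 564 ± 40.6 CPM and astrocytes at 556 ± 71.7 CPM (SD, n = 6) overlapped each other and lay well below neurons. Glutamatergic neurons held 86.6% ± 2.54 of all Dab1 UMIs and GABAergic neurons 9.14% ± 1.90. Their mean shares of Reln UMIs were 36.1% and 57.3% in aplCoA and 53.0% and 42.8% in pplCoA. After thinning, a Dab1 UMI was found in 95.6% of glutamatergic and 75.9% of GABAergic nuclei, in 62.9% of OPCs and 62.3% of astrocytes, and in 8.79% of microglia. Dab1 was also abundant in droplets without a nucleus (1193 ± 254 CPM, SD, n = 6), and the microglial share gives the level seen in a class that should lack it.

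Fyn was by far highest in NFOLs. It stood at 3543, 3962 and 4419.6 CPM in the aplCoA replicates and at 5052, 4604 and 5288 CPM in the pplCoA replicates, against 294 to 340.4 CPM in OPCs and 79.0 to 145 CPM in MOLs. NFOL values were 11.7 to 16.6 times those of OPCs and 31.7 to 50.1 times those of MOLs of the same replicate. Fyn is known to act in oligodendrocyte differentiation and myelination apart from Reelin. The log2 difference from glutamatergic neurons was 4.85 in NFOLs (SE 0.11, edgeR adjusted p = 5.31e-41), 1.02 in OPCs (SE 0.09), 0.53 in GABAergic neurons (SE 0.09) and 0.44 in astrocytes (SE 0.09), and all 4 were called. With 315 nuclei, 0.805% of all nuclei on average, NFOLs held 14.2% ± 5.10 (SD, n = 6) of the Fyn UMIs. In droplets without a nucleus Fyn stood at 145 ± 19.2 CPM (SD over replicates), and the part of free RNA in its lower levels was not tested.

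Crk and Crkl, which bind phosphorylated Dab1 and many other tyrosine-phosphorylated proteins, varied least of the 7 genes over the 9 classes. Among the 9 classes Crk was highest in microglia, at 108 to 121 CPM, where the highest replicate of the other 8 was at 74.4 CPM, with a log2 difference from glutamatergic neurons of 1.33 (SE 0.08, edgeR adjusted p = 5.96e-22). Its means in the other 8 classes ran from 26.5 to 59.8 CPM. The smaller groups of macrophages (109 ± 19.0 CPM, SD, n = 5) and mural cells (66.3 and 155 CPM in 2 replicates) overlapped microglia. Crkl was lowest on average in glutamatergic neurons, at 12.2 to 16.2 CPM, and higher in all 8 other classes, with log2 differences from 0.29 in GABAergic neurons to 1.28 in microglia, each called. The replicates of NFOLs (13.2 to 42.0 CPM) and MOLs (10.1 to 24.9 CPM) overlapped the glutamatergic range. The call in NFOLs (adjusted p = 0.0452) was lost in 12 of 19 alternatives, with adjusted p up to 0.309, and that in MOLs in 2. In droplets without a nucleus Crk stood at 50.1 ± 3.96 CPM and Crkl at 21.8 ± 4.37 CPM (SD over replicates). The part of free RNA in the levels of both genes was not tested.

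Over the 8 classes compared with glutamatergic neurons, 52 of 56 gene tests were called at an adjusted p under 0.05, 21 higher and 31 lower. Most genes differ between such classes, and nothing is read from this count. The share of all 11595 genes called was 80.4% for astrocytes, 75.2% for OPCs, 62.9% for NFOLs, 74.3% for MOLs, 85.8% for microglia, 78.6% for VLMCs and 74.5% for ABCs. The 4 tests that missed the threshold were all of Crk, in GABAergic neurons, NFOLs, MOLs and VLMCs. With doublets kept, Reln in microglia moved from -4.49 to -2.00, Reln in MOLs from -4.09 to -1.36 and Dab1 in microglia from -6.03 to -2.87 on the log2 scale against glutamatergic neurons, still lower.

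Within the GABAergic class Reln varied far more than any other of the 7 genes. Reclustering gave 21 GABAergic clusters, numbered by size, of which 19 had at least 50 nuclei, and across these pooled Reln ran from 6.42 to 5562 CPM, an 866-fold range, against 61.9-fold for Dab1 and 1.70-fold to 3.07-fold for the other 5 genes. Cluster GABA 7, led by C87487, 6530411M01Rik and Dkk2, expressed Lamp5 in 78.8% and Ndnf in 92.1% of nuclei, markers of neurogliaform-type interneurons. Its Reln values were 4992, 6109 and 6267 CPM in aplCoA and 5648, 6012 and 5659 CPM in pplCoA. Cluster GABA 6, led by Ptger3, Cobll1 and Ccdc60 with Ndnf in 76.0% of nuclei but Lamp5 in only 5.79%, stood at 2879, 2682 and 2869.8 CPM in aplCoA and at 3143, 2492 and 3365 CPM in pplCoA. These 2 clusters were 5.96% and 7.16% of GABAergic nuclei and held 31.4% and 26.0% of GABAergic Reln UMIs. Cluster GABA 1, with Lamp5 in 71.9% and Ndnf in 67.8% of nuclei, held 1136 CPM, and clusters GABA 10, 14, 15, 17 and 18 held 1180 to 1895 CPM.

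Cluster GABA 12, led by Itga8, Gulp1 and Megf10, held 666 CPM and GABA 11, led by Gm45680, B020031H02Rik and Hapln1, 321 CPM.

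Reln was low in clusters GABA 2, 3, 4, 5, 8, 9, 16 and 19. It stood at 30.5 CPM in GABA 9, 34.9 CPM in GABA 16 and 14.4 CPM in GABA 19. In GABA 3, where Sst was found in 86.0% of nuclei, Reln stood at 91.8 CPM, and in GABA 4 and GABA 5, with Vip in 97.6% and 81.4% of nuclei, at 69.8 and 67.0 CPM. Vip was also found in 39.6% of GABA 12 nuclei and Sst in 32.2% of GABA 6 nuclei, clusters with 666 and 2935 CPM of Reln. Clusters GABA 8 and GABA 2, where Pvalb was most frequent (18.8% and 20.4% of nuclei), held 6.42 and 12.9 CPM. Clusters with Sst in 86.0% to 94.4% of nuclei also held little Dab1. It stood at 63.0 CPM in GABA 3, 97.6 CPM in GABA 16 and, from 36 nuclei, 106 CPM in GABA 21. The median of the 19 clusters was 1669.9 CPM. Dab1 was higher where Sst was less frequent, at 903, 686 and 1215 CPM in GABA 9, GABA 19 and GABA 6 (Sst in 36.0%, 37.5% and 32.2% of nuclei). Across 6 replicates Dab1 in GABA 3 was 58.8 ± 20.7 CPM (SD), against 2985 ± 296 CPM in GABA 8, which was lowest in Reln among the 19 clusters with at least 50 nuclei. High Dab1 was thus found both with the highest Reln (GABA 7, 3895 CPM of Dab1) and with the lowest Reln of these 19 clusters (GABA 8, 2997 CPM).

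**Figure D2:**
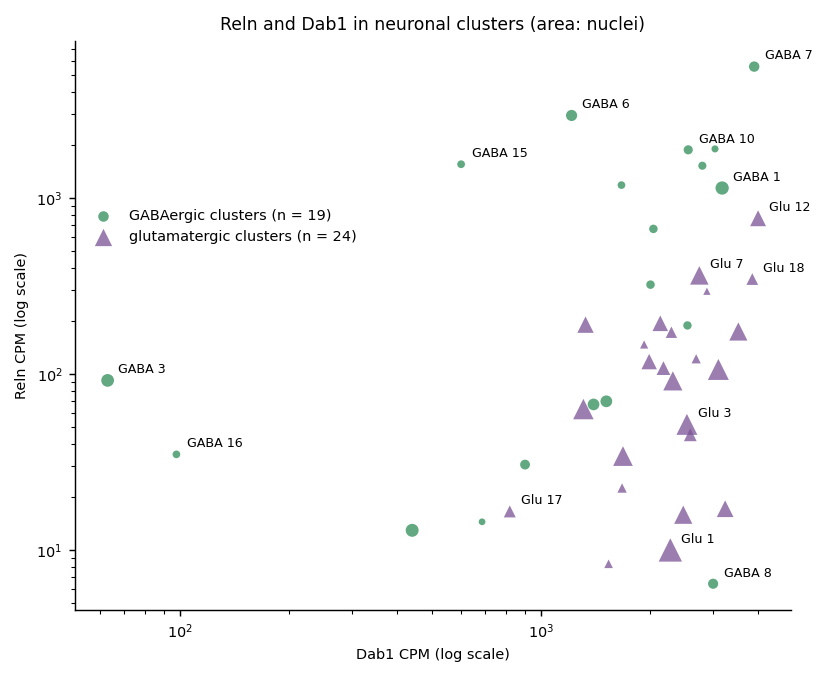
Pooled CPM of Dab1 (horizontal, log axis) against Reln (vertical, log axis) for each neuronal cluster with at least 50 nuclei, 19 GABAergic (circles) and 24 glutamatergic (triangles), with symbol area growing with the number of nuclei. GABA 7 lies at the upper right with 5562 CPM of Reln. GABA 3 and GABA 16, with Sst in 86.0% and 87.5% of nuclei, lie apart at the left with 63.0 and 97.6 CPM of Dab1.

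Among 24 glutamatergic clusters of at least 50 nuclei, pooled Reln ran from 8.33 to 765 CPM and Dab1 from 819 to 3992 CPM. Both were highest in cluster Glu 12, led by Pde11a, Cpa6 and B230110G15Rik. It was 4.20% of glutamatergic nuclei and held 27.9% of glutamatergic Reln UMIs, at 754 and 832 CPM in aplCoA replicates 1 and 3 and at 759, 719 and 754 CPM in pplCoA, while aplCoA replicate 2 gave 2 nuclei and no value. Reln was found in 98.3% of its nuclei without thinning. Cluster Glu 7, led by Sema3d, Gm27151 and Pcsk5, held 362 CPM and 15.2% of glutamatergic Reln UMIs, and cluster Glu 18, led by Moxd1, Svil and Met, 345 CPM from 406 nuclei, of which 402 came from pplCoA. By domain, Glu 12 held 22.2% of these UMIs in aplCoA and 33.5% in pplCoA and Glu 7 20.7% and 9.89%. In pplCoA Glu 9 held 14.8%, Glu 2 10.5% and Glu 18 10.1%. Across clusters, Pearson's r between log2 levels of Reln and Dab1 was 0.44 over 19 GABAergic and 0.47 over 24 glutamatergic clusters, with Spearman's rho of 0.46 and 0.44. These are descriptions of clusters that share libraries and depth.

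**Figure D3:**
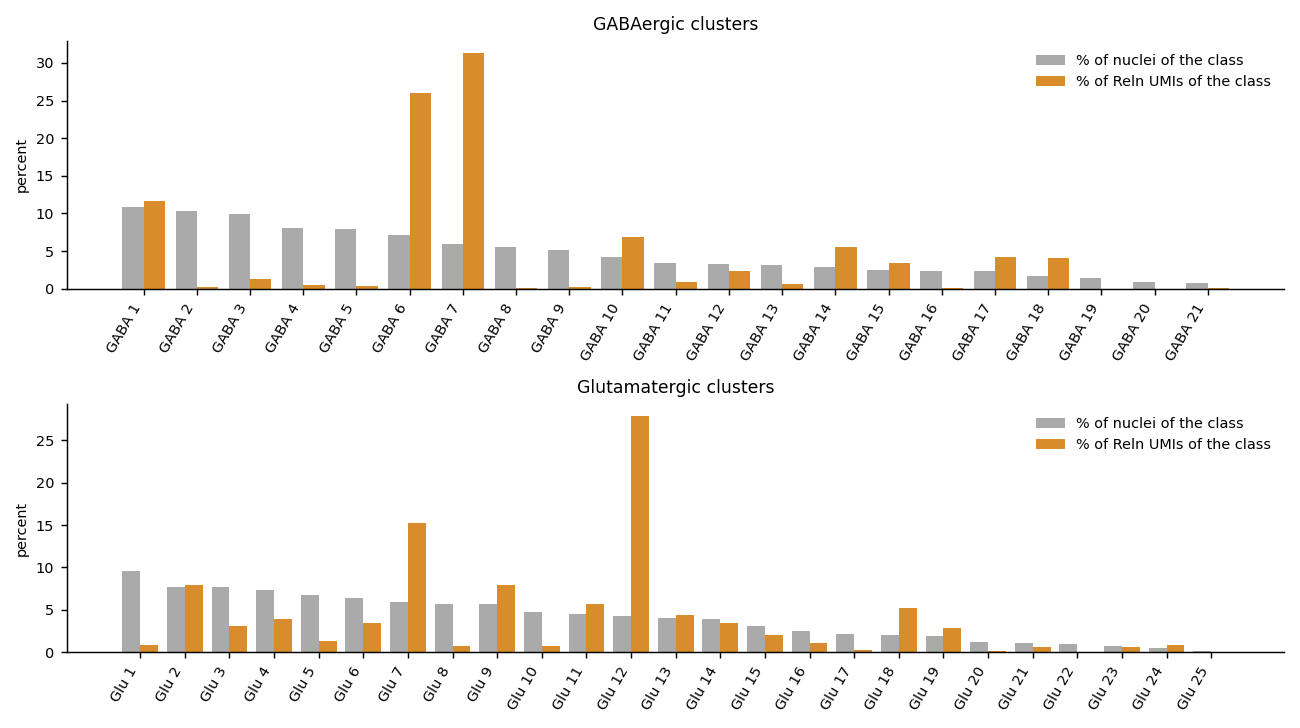
Percent of the nuclei of a class (grey bars) and of its Reln UMIs (orange bars) in each cluster, all replicates pooled, for GABAergic (top) and glutamatergic (bottom) clusters numbered by size. GABA 7 and GABA 6 hold 31.4% and 26.0% of the GABAergic Reln UMIs, and Glu 12 holds 27.9% of the glutamatergic Reln UMIs.

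Ligand and adaptor were often seen in the same nucleus. In GABAergic nuclei thinned to 2000 UMIs, Dab1 was found in 82.1% to 91.6% of nuclei with a Reln UMI (mean 86.9%) and in 65.9% to 72.2% of those without (mean 69.5%), higher in 6 of 6 replicates and without overlap. In glutamatergic nuclei the shares were 96.9% and 95.4%, and their ranges overlapped. Cells of a replicate are not replicates, and these shares are given with no test.

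Between domains, Reln in GABAergic neurons and Dab1 in glutamatergic neurons were the 2 of 45 tests over 9 classes that passed, against 10 at an unadjusted p under 0.05. Reln was higher in aplCoA GABAergic neurons, at 1043 ± 63.0 against 798 ± 58.2 CPM (SD, n = 3), with no overlap of replicates. The difference was 0.33 on the log2 scale (SE 0.08, edgeR quasi-likelihood adjusted p = 0.0140), in a comparison in which 10.0% of 8753 genes were called. Leaving out aplCoA replicate 2, pplCoA replicate 2 or pplCoA replicate 3 gave the same direction with adjusted p of 0.0625, 0.0586 and 0.0660.

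Dab1 was lower in aplCoA glutamatergic neurons, at 2332 ± 105 against 2718 ± 219.9 CPM (SD, n = 3). The highest aplCoA value (2452 CPM) lay just under the lowest pplCoA value (2468 CPM), so the ranges were separate by a narrow margin. The difference was -0.30 on the log2 scale (SE 0.09, edgeR adjusted p = 0.0476) where 21.0% of 9715 genes were called, so a call here is common. It was near the threshold. The call was lost in 11 of 19 alternatives, 5 of them fits without 1 replicate, with adjusted p of 0.0591 to 0.178 without aplCoA replicate 1, 2 or 3 or pplCoA replicate 2 or 3. The others were library sizes alone as scaling (0.0853), either library of aplCoA replicate 1 alone (0.0568 and 0.0681) and the 3 other clusterings (0.0505 to 0.0506).

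Reln in glutamatergic neurons was lower on average in aplCoA, at 115 ± 37.7 against 153 ± 12.4 CPM, but aplCoA replicate 3 lay inside the pplCoA range. The log2 difference was -0.49 (SE 0.20, adjusted p = 0.120), and without aplCoA replicate 3 it was -0.78 (adjusted p = 0.00551), while without aplCoA replicate 2 it was -0.32 and not called. It was also called with the replicate number as a block (-0.53, adjusted p = 0.0337), with DESeq2 (0.0411) and with no filter on low counts (0.0344). Reln in astrocytes was 62.4 ± 12.7 against 39.7 ± 12.2 CPM, a log2 difference of 0.59 that did not pass (adjusted p = 0.234). Dab1 in GABAergic neurons differed by 0.13 (SE 0.09, adjusted p = 0.470) and in astrocytes by -0.27 (adjusted p = 0.220). In MOLs Dab1 differed by -0.51 (adjusted p = 0.264) and in OPCs by -0.19 (adjusted p = 0.165), neither called. In microglia, NFOLs, VLMCs and ABCs it differed by 0.26, 0.10, 0.12 and 0.09, none called.

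**Figure D4:**
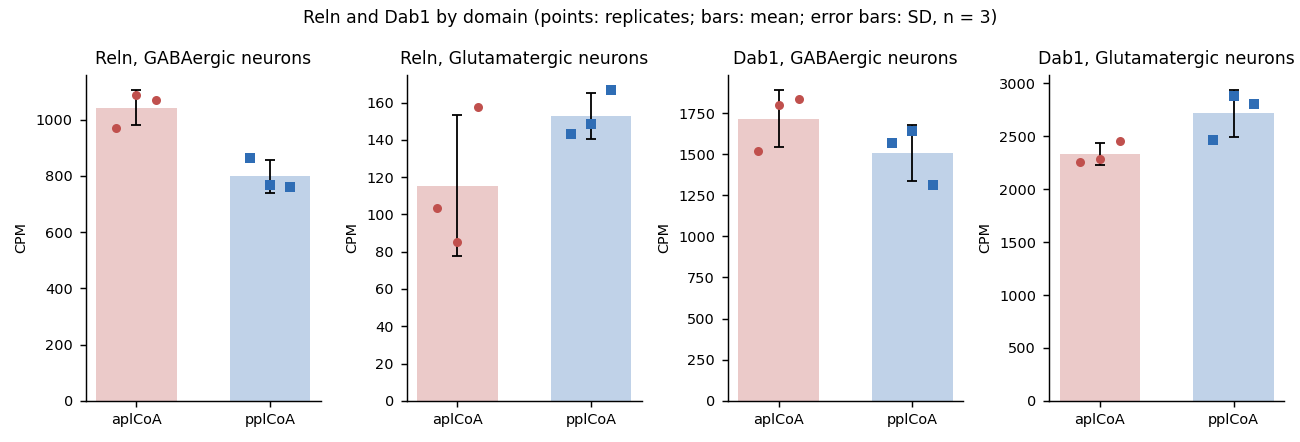
CPM of Reln and Dab1 in GABAergic and glutamatergic neurons by domain, with 1 point per replicate, bars from 0 to the mean of 3 replicates and error bars of 1 SD. The aplCoA and pplCoA points do not overlap for Reln in GABAergic neurons and for Dab1 in glutamatergic neurons, and they overlap in the other 2 panels.

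The receptors and the downstream genes did not pass in any class by this test. Over the tests of Vldlr, Lrp8, Fyn, Crk and Crkl the largest fitted difference was of Crkl in NFOLs, at 1.25 on the log2 scale (SE 0.42, adjusted p = 0.393), from 10 to 12 UMIs per aplCoA replicate and 4 to 6 per pplCoA replicate. In glutamatergic neurons Vldlr differed by 0.05 (SE 0.07), Lrp8 by -0.08 (SE 0.08), Fyn by -0.14 (SE 0.07), Crk by 0.16 (SE 0.07) and Crkl by 0.02 (SE 0.11). In GABAergic neurons their differences ran from -0.19 for Fyn (SE 0.07) to 0.13 for Crk (SE 0.11). The median of the 7 genes was -0.08 in glutamatergic and -0.02 in GABAergic neurons, beside 0.0052 and -0.00070 over all genes tested. With library sizes alone, the share of calls that were higher in aplCoA moved from 48.4% to 68.4% over all genes in glutamatergic neurons and from 45.3% to 60.7% in GABAergic neurons, the directions of Reln and Dab1 did not change, and Crk in glutamatergic neurons was called (0.24, adjusted p = 0.0398).

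In the other classes the genes tested gave no call. Over all 9 classes edgeR's likelihood ratio test again gave 2 calls and DESeq2 gave 3, the added one being Reln in glutamatergic neurons. The share of all genes called was 0.617% in astrocytes, 6.75% in OPCs, 0% in NFOLs, 2.35% in MOLs, 0% in microglia, 0.0174% in VLMCs and 0% in ABCs. Genes seen in fewer than 10% of a class's nuclei in each domain were not tested. These were Reln in OPCs, NFOLs, MOLs, microglia, VLMCs and ABCs, Lrp8 in NFOLs, MOLs, microglia, VLMCs and ABCs, Vldlr in astrocytes, microglia, VLMCs and ABCs, Crk in astrocytes, and Crkl in astrocytes and MOLs.

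**Figure D5:**
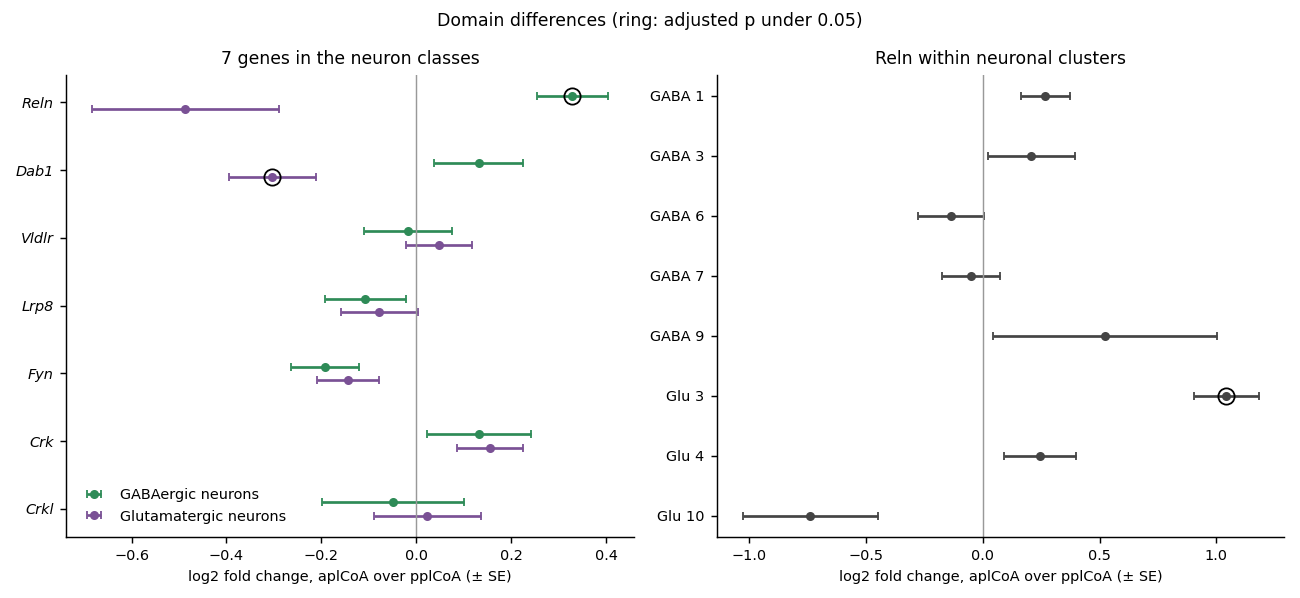
Fitted log2 difference (aplCoA over pplCoA) with its standard error for each of the 7 genes in the neuron classes (left) and for Reln in the 8 neuronal clusters where it was tested (right), with a ring where the adjusted p was under 0.05. Reln lies at 0.33 in GABAergic and -0.49 in glutamatergic neurons, and at 1.04 in cluster Glu 3.

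The domain effect on Reln differed between the neuron classes. Its log2 difference between domains was larger in GABAergic than in glutamatergic neurons by 0.83 (SE 0.20, edgeR adjusted p = 0.0454), where 5.17% of 9717 genes were called. The corresponding value for Dab1 was 0.41 (SE 0.12, adjusted p = 0.0932, but called with the likelihood ratio test at 0.0304, with DESeq2 at 0.0218, with no filter and without pplCoA replicate 1 at 0.00626), and the other 5 genes lay between -0.10 and -0.04. The call for Reln was lost without aplCoA replicate 1 (adjusted p = 0.145), aplCoA replicate 2 (0.0933), pplCoA replicate 2 (0.164) or pplCoA replicate 3 (0.177), with doublets kept (0.0805) and without the pool as a block (0.79, adjusted p = 0.122), always with the same sign.

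Within the clusters that hold most GABAergic Reln, the difference between domains did not pass. Of 10 neuronal clusters with at least 20 nuclei in every replicate, GABA 7 gave a log2 difference of -0.05 (SE 0.12, adjusted p = 0.956) and GABA 6 of -0.14 (SE 0.14, adjusted p = 0.818), and their replicates overlapped. GABA 1 gave 0.27 (SE 0.10, adjusted p = 0.207), at 1254, 1386 and 1111 CPM in aplCoA and at 1038, 1078 and 842 CPM in pplCoA, without overlap. The 2 richest clusters were larger shares of aplCoA than of pplCoA GABAergic nuclei, GABA 6 with 8.96% against 4.86% and GABA 7 with 6.85% against 4.82%. So were GABA 14 (3.93% against 1.53%) and GABA 18 (2.70% against 0.495%), both absent from at least 1 replicate. GABA 10 was 2.70% against 6.03% and GABA 15 1.51% against 3.74%. These are pooled shares with no test. Level per nucleus and number of nuclei both enter the class sum, and their parts in the class difference were not tested. The share of GABAergic nuclei with a Reln UMI at 2000 UMIs was 39.1%, 43.7% and 42.5% in aplCoA and 35.3%, 32.1% and 29.0% in pplCoA (exact permutation p = 0.1, the smallest possible), and in glutamatergic nuclei it was 14.5% ± 3.76 against 19.1% ± 1.70 (SD, n = 3, exact permutation p = 0.2).

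The only call among 68 gene tests in these clusters, 4 of which had an unadjusted p under 0.05, was of Reln in cluster Glu 3, led by 6330411D24Rik, Chrm2 and Gm2164. Its level was low, at 63.7, 76.9 and 60.6 CPM in aplCoA and at 33.5, 28.9 and 30.3 CPM in pplCoA, with no overlap, from 30 to 273 UMIs per replicate. The log2 difference was 1.04 (SE 0.14, edgeR adjusted p = 0.00131) and stayed called without any 1 replicate (adjusted p 0.000533 to 0.0175). The glutamatergic class as a whole had the opposite sign (-0.49), as did Glu 10 (-0.74, SE 0.29, adjusted p = 0.418), at 5.35 to 16.4 CPM in aplCoA and up to 32.1 CPM in pplCoA without overlap, and neither passed. The share of all genes called was 1.40% in Glu 3, 0.236% in Glu 4 and 0.0197% in Glu 10, and 1.94%, 0.495%, 0.427%, 0.929%, 0.384%, 0.481% and 0.109% in GABA 1, 2, 3, 6, 7, 8 and 9. The Glu 3 levels lay below those of droplets without a nucleus (142 CPM) and above those of microglia (2.00 to 10.7 CPM). Glu 12, Glu 7 and Glu 18 had too few nuclei in at least 1 replicate to be tested.

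Of the 56 other genes of the pathway, chosen by role, 44 were tested between domains in glutamatergic neurons, and 7 were higher and 5 lower in aplCoA, where 21.0% of all genes were called. Of the 6 genes listed for Dab1 turnover, 5 were tested and 1 was called in each direction, Rnf7, a subunit of the ubiquitin ligase that removes phosphorylated Dab1, at 0.66 (SE 0.12) and Socs2, a SOCS box protein, at -0.99 (SE 0.23) on the log2 scale. Among effectors (17 of 21 tested, 3 higher and 2 lower), Nectin1, a cell adhesion protein, was lower (-1.15, SE 0.17), whereas Cfl1, the actin-severing cofilin, Dab2ip and Pik3r1, a regulatory subunit of PI3-kinase, were higher (0.83, 0.82 and 0.47). The Cdk5 activator Cdk5r1 was higher (0.43) and the NMDA receptor subunit Grin2a lower (-0.43). In GABAergic neurons 2 of 41 were called, Rnf7 (0.71) and Cfl1 (0.44), where 10.0% of all genes were called. Rnf7 was also called in MOLs (1.25), the only call of 28, and Cfl1 (0.85) and Clu, an alternative ligand of the receptors (0.52), in OPCs, 2 of 32, beside 2.35% and 6.75% of all genes. No other pathway gene was called in astrocytes, NFOLs, microglia, VLMCs or ABCs or in any of the 10 clusters.

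Between classes most genes differed. Of the 4 ligand processing genes tested in GABAergic against glutamatergic neurons, 2 were called higher and 2 lower. The lower ones were Adamts3 and Adamts2, proteases that cleave Reelin, with log2 differences of -1.89 (SE 0.12) and -3.14 (SE 0.21). Adamts2 was higher in VLMCs (3.20, SE 0.16) and ABCs (3.98, SE 0.16), and Adamts4 in MOLs (8.49, SE 0.25) and NFOLs (7.87, SE 0.33). The other receptor ligands Apoe and Clu were higher in astrocytes (5.19 and 4.34) and OPCs (4.49 and 2.32). Both were also called higher in GABAergic neurons, NFOLs, MOLs, VLMCs and ABCs, and 1 of them in microglia. Mylip, the ubiquitin ligase that degrades these receptors, was higher in microglia (5.10, SE 0.15) and lower in GABAergic neurons (-1.42, SE 0.17). Over the 49 pathway genes tested, 34 of which were called in GABAergic neurons (16 higher, 18 lower, beside 60.1% of all genes), the median difference there was -0.03, against 0.42 for the 7 genes and -0.01 for all genes.

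Over the 43 neuronal clusters with at least 50 nuclei, the genes most like Reln in log2(CPM + 1), among 12590 compared, were Gm10475 (Pearson's r 0.98) and Gm16110 (0.86), followed by Tbl1x (0.74), Gm43657 (0.74) and Teddm3 (0.72). The first 2 are antisense genes that overlap Reln on the opposite strand, with 6059 and 193 UMIs against 80778 for Reln, and whether reads were split between them was not tested. Among the genes most like Dab1 were B3gat1 (0.72), Chrm1 (0.72), Zfyve28 (0.71) and Cdk17 (0.70).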

How the data were processed

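The deposited files held, per library, the UMI counts of every barcode, which the authors made with Cell Ranger (5.0.0 per the submitters' processing notes, while the file headers name version 4) against mm10 with introns included. Barcodes with at least 1000 genes were kept, outliers (beyond 5 median absolute deviations or interquartile ranges) were removed, and 4123 of 50535 remaining nuclei were removed as doublets by Scrublet score at 1% per 1000 nuclei. Clustering used scanpy 1.11.5 on Pearson residuals of 5000 variable genes without the pathway genes (50 components, 15 neighbours, Leiden resolution 1), and clusters were named from markers. Neurons were then clustered again by class. Cluster Glu 23 (149 nuclei) was led by Dlx6os1, a GABAergic marker. It held Slc17a6 in 6.71% and Slc17a7 in 10.1% of nuclei, against 25.6% and 77.0% in the glutamatergic class. These markers go against its class name, but it was kept in its class and among the 24 glutamatergic clusters.

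UMIs were summed per class (at least 10 nuclei per replicate) or cluster (at least 20) and tested with edgeR 4.0.16 in R 4.3.3 (quasi-likelihood, TMM, genes seen in 10% of nuclei, Benjamini-Hochberg over all genes tested, adjusted p under 0.05). Contrasts between classes had the pool as a block. The tests were tested on simulated data with changes larger than any domain difference given here. Their recovery of smaller differences was not tested. Single values were tested by exact two-sided permutation over replicates, and thinned shares are means of 20 draws. Free RNA was taken from barcodes too small to be nuclei. Alternatives were the likelihood ratio test, DESeq2 1.42.0, other scalings, filters, thresholds and clusterings, doublets kept, and leaving out replicates or libraries. Same-numbered replicates were not taken as pairs.

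The genes and lists were chosen with earlier results of these data known. Other pathway genes are named where called, at most 8 per comparison by smallest p, and the 5 genes most like Reln or Dab1 by Pearson's r, of which 1 is not reported here. The UMI counts behind low values limit their precision.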

Additional observations from a re-analysis of the deposited data

Results flagged for a closer look

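For 5 of 49 genes tested (Reln and 4 other pathway genes), the difference between domains was not the same in GABAergic and glutamatergic neurons by a test of the interaction itself (edgeR adjusted p under 0.05), where 5.17% of all genes were called. The log2 difference (aplCoA over pplCoA) in GABAergic minus that in glutamatergic neurons was 0.83 for Reln (adjusted p = 0.0454), with 0.33 in GABAergic and -0.49 in glutamatergic neurons, and the call was lost in 4 of 6 fits without 1 replicate, with doublets kept and without the pool as a block (adjusted p 0.0805 to 0.177). It was 1.12 for the adhesion gene Nectin1 (adjusted p = 0.0271), 0.71 for Socs2 (0.0469), -1.12 for Dab2ip (0.00848) and -0.38 for the Src family kinase gene Yes1 (0.0472).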

How the results depend on the processing

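Of 1109 values recomputed for 59 results on single genes, 1043 kept direction and side of the threshold, 37 lost the call, 15 gained one and 14 changed sign, none of these called on either side. The sign changes were of Crk in GABAergic neurons (0.15) against glutamatergic neurons and, between domains, of Crkl in GABAergic (0.0094), Lrp8 in glutamatergic (0.0068) and Vldlr in GABAergic neurons (0.040) with library sizes alone. With doublets kept they were of Crk in GABAergic neurons (0.0093) and MOLs (0.0074) against glutamatergic neurons and of Crkl between domains in glutamatergic neurons (-0.0025), and with library 2 of aplCoA replicate 1 alone of Vldlr in GABAergic neurons (0.0093). Without 1 replicate, Crkl ran from -0.0777 to 0.105 in glutamatergic and from -0.145 to 0.0901 in GABAergic neurons, and Vldlr from -0.0313 to 0.0244 in GABAergic neurons. Over the classes, 2 of the tests of the 7 genes between domains were called, against 4 with no filter on low counts, 1 with library 1 of aplCoA replicate 1 alone, 1 each with log-normalized clustering, Leiden resolution 2 and pathway genes kept in clustering, 0 at an adjusted p under 0.01 with at least 1.5-fold, and 0 to 2 when 1 replicate was left out. Over all genes, calls in glutamatergic and GABAergic neurons were 2036 of 9715 and 879 of 8753. They were 3500 of 27723 and 1512 of 24969 with no filter, and 1596 of 9651 and 201 of 8680 with library 1 of aplCoA replicate 1 alone. Without 1 replicate they ran from 876 to 2426 and from 316 to 879. With the other clusterings they ran from 2012 to 2016 and from 877 to 906. For the interaction, 1 of the 7 genes was called, against 2 (Dab1 added) with the likelihood ratio test, DESeq2 or no filter, 0 with doublets kept or the stricter thresholds, and 0 to 2 when 1 replicate was left out. The difference in the share of Trp73 nuclei reversed to -0.0040 percentage points with doublets kept (p = 1), and ran from -0.0229 to 0.0968 when 1 replicate was left out (exact permutation p 0.4 to 1), while for the whole cluster it was 0.184 (exact permutation p = 0.1). With a floor of 1 Trp73 UMI, the log2 ratio of Reln in Trp73 nuclei over glutamatergic nuclei was 2.73, and in the whole cluster it was 4.83, a choice made after seeing the data (exact permutation p at the smallest value that 6 replicates allow, for each). The cause of these changes was not tested.

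With the replicate number as a block, 3 tests between domains were called, the added one being Reln in glutamatergic neurons (-0.53, adjusted p = 0.0337). Without the pool as a block the interaction gave 0 calls (Reln 0.79, adjusted p = 0.122) and the contrasts between classes again 52. Deviations of same-numbered replicates correlated at -0.05 to 0.09 in glutamatergic neurons, -0.16 to 0.02 in GABAergic neurons and 0.09 to 0.39 in astrocytes, and not every replicate correlated best with its own number. Reln in glutamatergic neurons was also called with DESeq2 (adjusted p = 0.0411) and with no filter (0.0344). NFOLs and ABCs held as few as 43 and 49 nuclei per replicate, and aplCoA replicate 2 held the fewest nuclei (4033).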
